A study of Mus musculus with 8 samples.

Results

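The genes described here encode the T cell receptor complex and the first proteins that carry its signal. They were the 9 genes Cd3d, Cd3e, Cd3g, Cd4, Cd8a, Lck, Zap70, Lat and Trbc2 of the 21434 genes in the table, found by gene name, and all 9 were present. They were listed with earlier results of these data known. RNA-seq was done on pancreatic tissue of untreated mice at 18 weeks of age, 4 Bach2KO and 4 Bach2WT mice, with 2 females and 2 males in each group. Bach2KO mice were homozygous for the allele of the strain C57BL/6N-Bach2tm1b(EUCOMM)Wtsi/leg, a constitutive whole-body knockout of Bach2, and Bach2WT mice were their wild type controls, given the same strain name in the labels. Because the deletion is in every cell, lymphocytes that enter the pancreas lack Bach2 as well as the pancreatic cells. The study asked how the loss of Bach2, a transcriptional repressor in lymphocytes, affects the pancreas.

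The T cell receptor has no signalling activity of its own. The variable alpha and beta chains, the latter ending in a constant region encoded by Trbc1 or Trbc2, bind the peptide and MHC molecule, and the CD3 gamma, delta and epsilon chains and the zeta chain (Cd247) carry the tyrosine motifs on the inner side of the membrane. The coreceptors CD4 and CD8 bring the kinase Lck to the receptor, Lck phosphorylates these motifs, the kinase Zap70 docks on them, and Zap70 phosphorylates the membrane adaptor Lat, on which the downstream complexes assemble. The healthy pancreas consists mainly of acinar cells, which make digestive enzymes, and holds few T cells. In tissue RNA, fewer T cells and less RNA per T cell cannot be told apart.

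The libraries held 72299745 to 172029360 counts on genes. Digestive enzymes, 33 listed genes, took 82.2% to 85.1% of them, and the acinar genes Ctrb1, Cela1, Cela2a and Pnlip were among the highest, as the labelled tissue would have it. The libraries of the female Bach2KO mouse 1 and the female Bach2WT mouse 1 had the highest summed levels of the 9 genes in their groups. The library of the male Bach2KO mouse 3 stood apart on the first principal component, at 101.8 against -34.8 to 7.22 for the other 7, a component with 23.3% of the variance. Bach2 itself had 16, 3, 12 and 14 counts in Bach2KO mice 1 to 4 and 4, 4, 31 and 6 in Bach2WT mice 1 to 4. Counted over the whole gene, including parts outside the deletion, its level could not check the labelled genotypes (exact permutation test, p = 0.943).

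Promoter windows were taken from RefSeq for 7 of the 9 genes, and those of Lat, Zap70 and Cd3d are shown. Lat and Zap70 have the lowest unadjusted p-values of the 9 genes between the genotypes, described below. Cd3d is shown for its unadjusted p in the interaction of sex and genotype, also described below. Its test between the genotypes gave an unadjusted p of 0.782 in edgeR. Each window holds the 250 bases before the annotated start, 5′ to 3′ on the strand of the gene, in the build GRCm38.p6. Lat lies at chr7:126369569-126369818 on the minus strand, Zap70 at chr1:36761548-36761797 on the plus strand and Cd3d at chr9:44981536-44981785 on the plus strand. Of the 3 starts listed for Zap70, the one nearest to the 5′ end of the gene was used. Capitals mark matches to any of 4 motifs searched on both strands: TGANTCA (N is any base), the core bound by AP-1 and Bach proteins, TGCTGA, one arm of the longer site bound by Bach and Maf dimers, TGTGGT, the Runx core, and CACCTG, an E-box. The first and the second motif can overlap in a full site.
Lat: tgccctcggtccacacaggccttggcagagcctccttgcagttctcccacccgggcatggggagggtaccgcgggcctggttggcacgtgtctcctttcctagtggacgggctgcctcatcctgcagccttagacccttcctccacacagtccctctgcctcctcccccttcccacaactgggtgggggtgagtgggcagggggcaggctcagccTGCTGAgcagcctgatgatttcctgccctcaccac
Zap70: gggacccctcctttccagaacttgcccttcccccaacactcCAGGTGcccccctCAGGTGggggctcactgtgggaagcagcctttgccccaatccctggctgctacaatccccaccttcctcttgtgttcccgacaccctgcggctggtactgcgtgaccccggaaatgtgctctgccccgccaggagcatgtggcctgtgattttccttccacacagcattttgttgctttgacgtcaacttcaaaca
Cd3d: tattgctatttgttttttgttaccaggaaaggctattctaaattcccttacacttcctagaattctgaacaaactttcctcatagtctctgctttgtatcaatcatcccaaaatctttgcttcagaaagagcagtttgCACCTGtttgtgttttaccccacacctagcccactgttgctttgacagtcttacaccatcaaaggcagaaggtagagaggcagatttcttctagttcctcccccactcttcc
Lat held TGCTGA, with its first base 35 bases before the start, and 16.1% of the 32851 windows of this length in the RefSeq table held the same letters. Zap70 held CACCTG on the opposite strand at 209 and 196 bases before the start, and Cd3d held it at 112 bases before the start. This motif was in 3 of the 7 member windows, also in that of Cd3g at 148 and 35 bases before the start, and in 17.2% of all windows. TGANTCA was in none of the 7 member windows and in 6.75% of all windows. TGTGGT was in 1 of the 7, that of Lck, and in 14% of all windows. These matches describe the letters of the windows and were not tested for binding.

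All 9 genes were near the lower limit of detection. Levels are given as CPM, the usual per-library scale of a count relative to the total, after TMM scaling, which adjusts each library for its composition. A count of 0 allows up to 3 counts, or 0.0155 to 0.0432 CPM depending on the library, and this covers counting error only. Between 58.9% and 62.0% of the non-zero counts per library were even, so both mates of a pair may have been counted separately, and the limit would then be 6 counts. Of the 36 values in each group, 5 were 0 in Bach2KO mice and 14 in Bach2WT mice (13.9% and 38.9%). Over all genes in the table these shares were 22.8% and 28.1%. The Bach2WT mouse 4 alone, with 84052687 counts in all, had 7 of the 14.

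The summed level of the 9 genes was 3.16, 0.930, 1.95 and 1.36 CPM in Bach2KO mice 1 to 4, with a mean of 1.85 ± 0.970 (SD, n = 4). In Bach2WT mice 1 to 4 it was 1.83, 0.571, 0.306 and 0.389 CPM, with a mean of 0.775 ± 0.714 (SD, n = 4). The groups overlapped, since Bach2WT mouse 1 was above 2 of the 4 Bach2KO mice. The mean was 2.39 times higher in Bach2KO mice, 4.38 times without Bach2WT mouse 1 and 1.83 times without Bach2KO mouse 1. Before TMM scaling, the 9 genes together took from 0.256 CPM in Bach2WT mouse 3 (95% Wilson interval 0.191 to 0.343) to 3.72 CPM in Bach2KO mouse 1 (3.41 to 4.06).

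**Figure D1:**
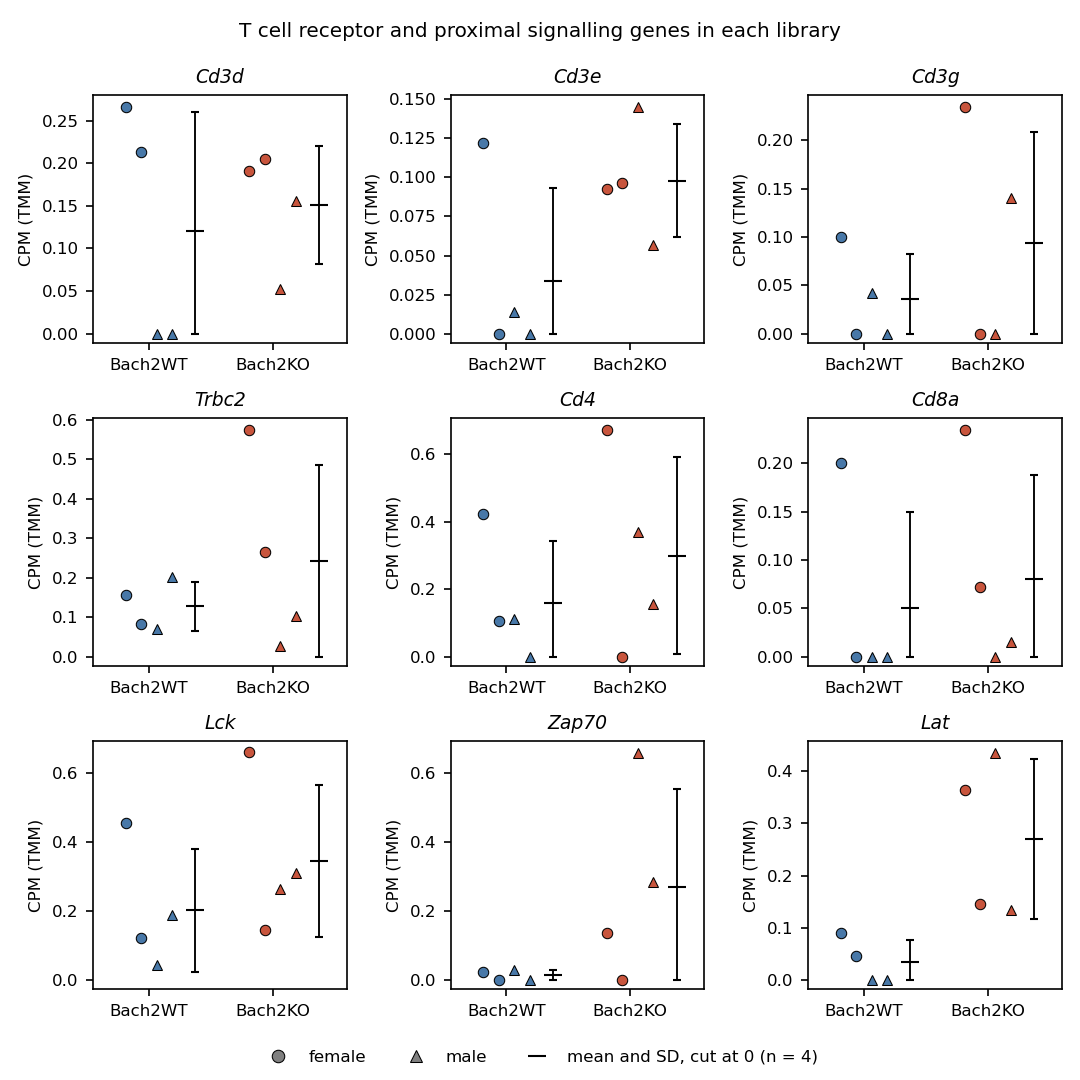
Level of each of the 9 genes in CPM after TMM scaling (y axes, linear and different for each gene) in the 4 Bach2WT and the 4 Bach2KO libraries. Circles are females, triangles are males, and bars give the mean and SD, with the lower bar cut at 0. Lat is the gene whose groups do not overlap, and Bach2WT mouse 1 is the highest Bach2WT library for Cd3d, Cd3e, Cd3g, Cd4, Cd8a, Lck and Lat.

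The clearest separation was found for Lat, the membrane adaptor phosphorylated by Zap70. Lat (ENSMUSG00000030742, GRCm39 chromosome 7, 125962996 to 125968742, minus strand) had 59, 12, 33 and 26 counts in Bach2KO mice 1 to 4. In Bach2WT mice 1 to 4 it had 8, 6, 0 and 0 counts. The lowest Bach2KO library lay above the highest Bach2WT library, in females and in males. The level was 0.270 ± 0.153 CPM in Bach2KO mice and 0.0336 ± 0.0426 CPM in Bach2WT mice (SD, n = 4 each), and the exact two-sided permutation test gave p = 0.0286, the smallest value that 4 against 4 mice allow. In the edgeR quasi-likelihood test the log2 fold change was 2.97 (SE 1.12), with an unadjusted p of 0.0199 and a Benjamini-Hochberg adjusted p of 0.618 over the 12820 genes tested. Thus, the difference in Lat did not pass the threshold of 0.05 after adjustment. Leaving out any 1 library kept a log2 fold change of 2.52 to 3.95, and without Bach2KO mouse 3 the unadjusted p was 0.0583.

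Zap70, the kinase that docks on the phosphorylated CD3 and zeta chains, had the largest fold change of the 9 genes and also few counts. Zap70 (ENSMUSG00000026117, chromosome 1, 36800879 to 36821899, plus strand) had 22, 0, 50 and 55 counts in Bach2KO mice 1 to 4 and 2, 0, 4 and 0 in Bach2WT mice 1 to 4. Bach2KO mouse 2 had no count, hence the groups overlapped, whereas the other 3 Bach2KO libraries lay above every Bach2WT library. The level was 0.270 ± 0.285 CPM against 0.0125 ± 0.0146 CPM (SD, n = 4 per group, p = 0.143 by exact permutation). Zap70 fell below the filter on low counts, which asks for a minimum level in as many libraries as a group holds. Fitted without the filter, its log2 fold change was 4.25 (SE 1.33), with an unadjusted p of 0.00294 and an adjusted p of 0.273 in edgeR, and DESeq2 gave 4.36 with an adjusted p of 0.116. Without Bach2KO mouse 2, the only Bach2KO library at 0, the adjusted p was 0.0390 in the unfiltered fit and 0.591 in the filtered fit, which then tested Zap70. Without Bach2KO mouse 3, the library with the highest level of Zap70, the log2 fold change was 3.36 and the adjusted p 0.603 in the unfiltered fit.

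Lck, the kinase that acts first after the receptor binds, was detected in all 8 libraries. Lck (ENSMUSG00000000409, chromosome 4, 129442137 to 129467434, minus strand) had 107, 12, 20 and 60 counts in Bach2KO mice 1 to 4 and 41, 16, 6 and 13 in Bach2WT mice 1 to 4. Within each group the first female stood above the other 3 mice. The level was 0.345 ± 0.222 CPM in Bach2KO mice and 0.202 ± 0.179 CPM in Bach2WT mice, a difference within the spread between mice (SD, n = 4 per group, p = 0.4 by exact permutation). The log2 fold change was 0.80 (SE 0.75, edgeR, adjusted p = 0.882), and it was 0.27 without Bach2KO mouse 1 and 1.6 without Bach2WT mouse 1. In Bach2WT mouse 4, Lck and Trbc2 were the only members of the 9 with a count, at 48.1% and 51.9% of their sum.

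The coreceptor genes mark the helper and the cytotoxic T cells, although Cd4 is also expressed by some myeloid cells and Cd8a by some dendritic cells. Cd4 (ENSMUSG00000023274, chromosome 6, 124841655 to 124865184, minus strand) had 109, 0, 28 and 30 counts in Bach2KO mice 1 to 4 and 38, 14, 16 and 0 in Bach2WT mice 1 to 4. Its level was 0.30 ± 0.292 CPM in Bach2KO mice and 0.160 ± 0.182 CPM in Bach2WT mice (SD, n = 4 per group, p = 0.543 by exact permutation), with a log2 fold change of 0.91 (SE 1.15, edgeR, adjusted p = 0.928). It was 0.12 without Bach2KO mouse 1 and 1.98 without Bach2WT mouse 1. A library at 0 occurred in both groups, so Cd4 did not separate the genotypes. Cd8a (ENSMUSG00000053977, chromosome 6, 71350411 to 71356157, plus strand) had 38, 6, 0 and 3 counts in Bach2KO mice 1 to 4 and 18, 0, 0 and 0 in Bach2WT mice 1 to 4. All 18 counts of the Bach2WT group came from mouse 1, and the level was 0.0807 ± 0.107 CPM against 0.050 ± 0.0999 CPM (SD, n = 4 per group, p = 0.543 by exact permutation). The unfiltered log2 fold change was 0.73 (SE 1.61, edgeR, adjusted p = 0.931), and it was -0.74 without Bach2KO mouse 1. Per kilobase, Cd4 was above Cd8a in 6 of the 8 libraries, below it in Bach2KO mouse 2, and both were 0 in Bach2WT mouse 4.

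The 3 CD3 genes lie next to each other on chromosome 9, with Cd3g and Cd3d pointing away from each other across 1354 bases and Cd3e a further 11400 bases away. Their products enter the receptor as gamma with epsilon and delta with epsilon pairs. Cd3d (ENSMUSG00000032094, 44893084 to 44898637, plus strand) had 31, 17, 4 and 30 counts in Bach2KO mice 1 to 4 and 24, 28, 0 and 0 in Bach2WT mice 1 to 4. The female Bach2WT mice had the highest levels and the male Bach2WT mice none, and the group means of 0.151 ± 0.0689 and 0.120 ± 0.140 CPM differed by less than the SD (n = 4 per group, p = 0.83 by exact permutation). The log2 fold change was 0.33 (SE 1.18, edgeR, adjusted p = 0.975). It was 1.64 with sex as a covariate, and it turned to -0.089 without Bach2WT mouse 3 and to -0.061 without Bach2WT mouse 4.

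Cd3e (ENSMUSG00000032093, 44910038 to 44920925, minus strand) had 15, 8, 11 and 11 counts in Bach2KO mice 1 to 4 and 11, 0, 2 and 0 in Bach2WT mice 1 to 4. All Bach2KO libraries had 8 or more counts, and in the Bach2WT group only mouse 1 did. The level was 0.0979 ± 0.0363 CPM against 0.0340 ± 0.0591 CPM (SD, n = 4 per group, p = 0.114 by exact permutation), and the log2 fold change of 1.51 (SE 1.23) had an adjusted p of 0.850 in edgeR. Without Bach2WT mouse 1 the log2 fold change was 3.94 with an adjusted p of 0.371. Cd3g (ENSMUSG00000002033, 44880870 to 44891729, minus strand) had 38, 0, 0 and 27 counts in Bach2KO mice 1 to 4 and 9, 0, 6 and 0 in Bach2WT mice 1 to 4. Each group had 2 libraries at 0, the exact permutation test gave p = 0.543 (n = 4 per group), and the unfiltered log2 fold change was 1.43 (SE 1.57, edgeR, adjusted p = 0.792), with 0.45 without Bach2KO mouse 1 and 2.62 without Bach2WT mouse 1.

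Trbc2 encodes one of the alternative constant regions of the receptor beta chain. Trbc2 (ENSMUSG00000076498, chromosome 6, 41523664 to 41525286, plus strand) had 93, 22, 2 and 20 counts in Bach2KO mice 1 to 4 and 14, 11, 10 and 14 in Bach2WT mice 1 to 4. The 2 female Bach2KO mice were above and Bach2KO mouse 3 was below all Bach2WT mice. Its level was 0.243 ± 0.243 CPM in Bach2KO mice and 0.128 ± 0.0620 CPM in Bach2WT mice (SD, n = 4 per group, p = 0.457 by exact permutation), and the log2 fold change was 0.95 (SE 0.88, edgeR, adjusted p = 0.873). It was 0.064 without Bach2KO mouse 1 and 0.48 with sex as a covariate. Its near-identical copy Trbc1 had 20, 5, 18 and 1 counts in Bach2KO mice 1 to 4 and 23, 4, 24 and 10 in Bach2WT mice 1 to 4. How reads that fit both copies were counted is not given in the sources used here, so the level of each is uncertain. None of the 9 genes overlaps another gene of the table on either strand.

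Over the 9 genes, the mean CPM was higher in Bach2KO mice for all 9. The 6 genes that passed the filter on low counts were Cd3d, Cd3e, Cd4, Lck, Lat and Trbc2, and Cd3g, Cd8a and Zap70 did not pass. All 6 had a log2 fold change above 0, with a median of 0.93, beside a median of 0.05 and 54.7% above 0 among the 12820 genes tested. The filter asks for a minimum level in as many libraries as a group holds. A gene that is high in 1 group alone, such as Lat, can therefore pass it. The 12820 genes also span all levels above the filter, so their median is not that of genes with counts this low. None of the 6 passed the adjusted p threshold of 0.05 in edgeR, and none of the 9 did without the filter or in DESeq2. Among all genes tested, 1 passed, or 0.0078%. At an unadjusted p under 0.05, Lat was called with the filter, and Lat and Zap70 were called without the filter and by DESeq2. Of all genes tested with the filter, 3.9% were higher in Bach2KO mice at this unadjusted threshold. This share is not given here for the unfiltered fit or for DESeq2. Lat was also the only 1 of the 9 whose groups did not overlap, and 2.57% of all genes tested were higher in Bach2KO mice without overlap. The 9 genes come from the same mice and cells, and they are not independent of each other.

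**Figure D2:**
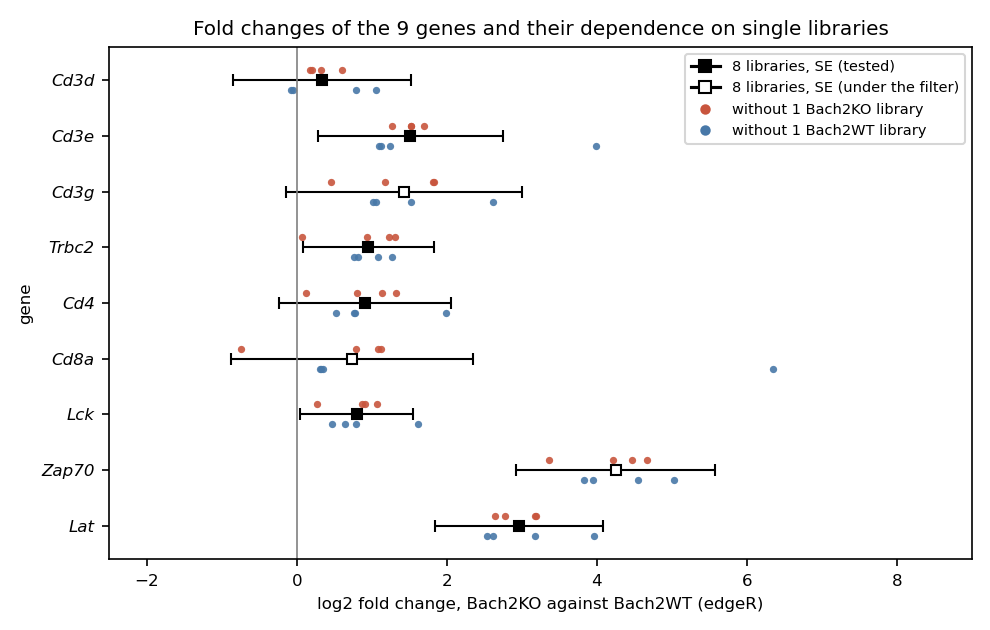
Log2 fold change of each gene, Bach2KO against Bach2WT, from edgeR (x axis). Squares with bars give the estimate and SE over 8 libraries, filled for the 6 genes that passed the filter and open for Cd3g, Cd8a and Zap70 from the unfiltered fit, and small points give the unfiltered estimate with 1 Bach2KO (red) or 1 Bach2WT (blue) library left out. Lat and Zap70 stay above 2 in every such fit, Cd3d and Cd8a cross 0, and the blue point of Cd8a at 6.35 comes from a fit in which all remaining Bach2WT libraries were at 0.

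To compare the genes with each other, levels were divided by the length of the gene model, since longer transcripts collect more reads. Trbc2 had the highest level per length, with a mean over 8 libraries of 0.267 ± 0.253 CPM per kilobase (SD, n = 8), over a model of 692 bases. It was followed by Lck at 0.0933 ± 0.0689, Cd3d at 0.0747 ± 0.0571, Cd4 at 0.0570 ± 0.0588, Lat at 0.0549 ± 0.0592 and Zap70 at 0.0473 ± 0.0776 CPM per kilobase. Lowest were Cd3g at 0.0197 ± 0.0266, Cd8a at 0.0180 ± 0.0268 and Cd3e at 0.0162 ± 0.0139 CPM per kilobase. Each mean differed from the next in this order by less than the SD of the higher one. Within libraries, Lck was above Zap70 in 7 of 8, with the reverse in Bach2KO mouse 3, and above Lat in 6 of 8. Cd3d was above Cd3e in 5 of 8 libraries and above Cd3g in 6 of 8. The order was the same with the FPKM values of the table.

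**Figure D3:**
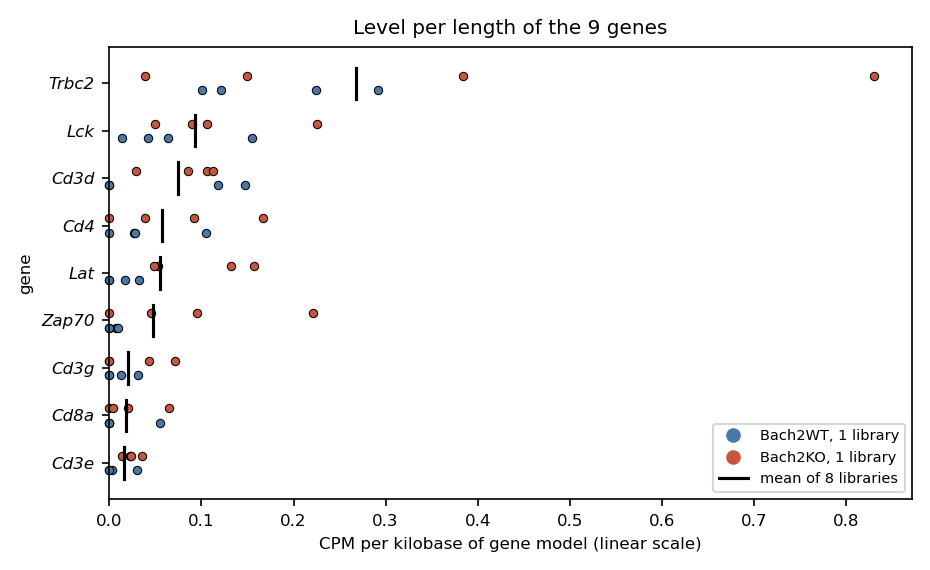
Level per length of the 9 genes in CPM per kilobase (x axis, linear), with the genes ordered by the mean over 8 libraries (black bars) and 1 point per library, blue for Bach2WT and red for Bach2KO. The points of neighbouring genes overlap, and Trbc2 has the widest range, with its highest value in Bach2KO mouse 1.

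Males and females were compared because sex was balanced between the groups. In the females, the 2 Bach2KO mice had 0.191 and 0.205 CPM of Cd3d and the 2 Bach2WT mice had 0.213 and 0.266 CPM. In the males, the Bach2KO mice had 0.0528 and 0.155 CPM and both Bach2WT mice had 0. The order of the genotypes for Cd3d was thus opposite in the sexes. The interaction term of sex and genotype in edgeR (male minus female effect) was 6.95 on the log2 scale for Cd3d (SE 2.36, unadjusted p = 0.0137, adjusted p = 0.794) and 6.14 for Lat (SE 2.44, unadjusted p = 0.0293, adjusted p = 0.807). Both estimates rest on male Bach2WT libraries without a count, and their size depends on the small count that the fit adds to these zeros. For Trbc2 it was -2.77 (SE 1.65, adjusted p = 0.868). Of all genes tested, 6.14% had an unadjusted p under 0.05 in the interaction and 0 passed after adjustment. In males, Bach2KO mice were above both Bach2WT mice for Cd3d, Cd3e, Cd4, Lck, Zap70 and Lat, and in females for Lat and Trbc2. With 2 mice per sex and genotype, these orders have no test of their own. The share of all genes with such an order is not given here, so the number of genes listed cannot be judged.

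Other genes of the pathway were examined in 6 lists. Of the other receptor chains, 6 of 7 listed were in the table and 2 were tested, Trac with a log2 fold change of 1.53 and Trbc1 with -0.50. Trac, the constant region of the alpha chain, had 86, 12, 4 and 22 counts in Bach2KO mice 1 to 4 and 16, 15, 0 and 0 in Bach2WT mice 1 to 4 (edgeR, adjusted p = 0.838). It resembled Cd3d in that both male Bach2WT libraries were at 0. The zeta chain gene Cd247 had at most 14 counts in a library, and it overlaps other genes, among them Pou2f1. The gamma chain gene Trgc2 had 20 counts in Bach2KO mouse 1 and 0 in the other 7 libraries. Of the coreceptors and costimulatory receptors, 4 of 14 were tested, 3 higher and 1 lower, with a median log2 fold change of 0.45. Ptprc, the CD45 phosphatase of all leukocytes, had 0.534 ± 0.356 CPM in Bach2KO mice and 0.547 ± 0.227 CPM in Bach2WT mice (SD, n = 4 each). The adhesion receptors Cd2 and Cd6 had log2 fold changes of 0.65 (SE 1.04) and 1.04 (SE 0.96), and neither passed the test in edgeR.

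The kinases, phosphatases and ubiquitin ligases of proximal signalling are largely expressed outside T cells too. Of these, 12 of 16 were tested, 8 higher and 4 lower, with a median log2 fold change of 0.23. The highest were Dgkz at 11.7 ± 1.57 against 9.16 ± 2.49 CPM, Csk at 4.27 ± 1.25 against 3.66 ± 0.341 CPM, Fyn at 2.94 ± 0.712 against 3.27 ± 0.739 CPM and Dgka at 2.30 ± 0.540 against 2.84 ± 0.732 CPM (Bach2KO against Bach2WT, SD, n = 4 each). Their mean levels were above those of all 9 receptor and signalling genes, and their fold changes ranged from -0.30 to 0.36 on the log2 scale. Of the adaptors and exchange factors, 14 of the 20 present were tested, 11 higher and 3 lower, with a median of 0.66. Grb2, which binds phosphorylated Lat, had 4.12 ± 0.595 CPM in Bach2KO mice and 3.03 ± 0.398 CPM in Bach2WT mice without overlap (log2 fold change 0.44, SE 0.19, edgeR, unadjusted p = 0.0367, adjusted p = 0.649). Its partner Sos1, which activates Ras, had a log2 fold change of 0.92 (SE 0.42, unadjusted p = 0.0473, adjusted p = 0.663). Plcg1, the phospholipase recruited by Lat, had 0.49 (SE 0.26, adjusted p = 0.723), and Bcl10, a scaffold upstream of NF-kappa-B, had 0.27 (SE 0.28, adjusted p = 0.893).

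Of the T cell transcription factors, 10 of 18 were tested, 6 higher and 4 lower, with a median log2 fold change of 0.24. Among the most abundant, the calcium-regulated factors Nfatc1 with -0.43 (SE 0.28), Nfatc3 with -0.18 (SE 0.32) and Nfatc2 with -0.16 (SE 0.35) did not pass the test. Of the activation, memory and effector genes, 9 of the 27 present were tested, 8 higher and 1 lower, with a median of 0.86. Il2rb, the beta chain of the interleukin-2 and interleukin-15 receptors, had 113, 29, 26 and 134 counts in Bach2KO mice 1 to 4 and 32, 36, 6 and 8 in Bach2WT mice 1 to 4 (log2 fold change 1.41, SE 0.64, edgeR, unadjusted p = 0.0466, adjusted p = 0.663). The highest of this list were Klf2 with a log2 fold change of 0.72 (SE 0.46), S1pr1 with 0.86 (SE 0.47) and Cd44 with 0.26 (SE 1.01), all 3 also expressed by other cells. None of the tested genes in the 6 lists passed the adjusted threshold in edgeR, and 3 had an unadjusted p under 0.05. These were Grb2 and Sos1, of 14 adaptors and exchange factors tested, and Il2rb, of 9 activation genes tested. At this unadjusted threshold, 3.9% of all genes tested were higher and 3.56% were lower in Bach2KO mice.

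Markers of other cells that pancreatic tissue can hold were read beside the T cell genes, and their part in the results was not tested. Like the summed T cell receptor genes, the B cell, plasma cell and lymph node sums were highest in mouse 1 of each group. Other lists differed from this in Bach2KO mice. Their pan-leukocyte sum was highest in mouse 2, at 18.3 CPM, against 15.6 CPM in mouse 1. Their dendritic cell and macrophage sums were lowest in mouse 1, at 1.41 and 20.0 CPM. The summed level of 8 pan-leukocyte genes was 15.2 to 18.3 CPM in Bach2KO mice and 6.23 to 19.9 CPM in Bach2WT mice, highest in Bach2WT mouse 1. Cd52 of this list was at 1.05 ± 0.149 against 0.501 ± 0.263 CPM without overlap (edgeR, unadjusted p = 0.0311, adjusted p = 0.641). For the 10 B cell markers the sums were 0.0264 to 2.12 CPM in Bach2KO mice and 0.360 to 6.28 CPM in Bach2WT mice, with the highest value of each group in mouse 1. All 4 tested B cell genes had a log2 fold change below 0, with a median of -1.45, and none passed the test. Markers of lymph node stroma and high endothelial venules summed to 1.49 to 12.2 CPM in Bach2KO mice and 0.691 to 4.89 CPM in Bach2WT mice, again highest in mouse 1 of each group. The genes behind these 2 highs differed. In Bach2WT mouse 1 the largest part was Cxcl13, at 3.08 CPM. Cxcl13 had 250, 0, 0 and 82 counts in Bach2KO mice 1 to 4 and 277, 117, 109 and 4 in Bach2WT mice 1 to 4. Its log2 fold change was -1.24 (SE 1.17, edgeR, adjusted p = 0.882), the only 1 below 0 of the 4 tested in this list. In Bach2KO mouse 1, Glycam1, a ligand made by high endothelial venules, had 725 counts, against 0 in the other 3 Bach2KO libraries and at most 6 in Bach2WT mice. The same library had 750 counts of Ccl21a, the T zone chemokine, against 73 to 157 in the other Bach2KO mice. In Bach2WT mice 1 to 4, Ccl21a had 88, 30, 37 and 18 counts. Its log2 fold change was 2.13 (SE 0.64, edgeR, unadjusted p = 0.00550, adjusted p = 0.523). The groups overlapped for Ccl21a (p = 0.0857 by exact permutation).

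NK cells share Zap70, Lck and the CD3 zeta chain with T cells, so their markers were also read. No NK cell or innate lymphoid gene of the 8 present was tested after the filter. Their sum was 0.0483 to 0.370 CPM in Bach2KO mice, highest in mouse 3, and 0 to 0.222 CPM in Bach2WT mice. Klrk1, an activating receptor also found on CD8+ T cells, had 6, 0, 6 and 24 counts in Bach2KO mice 1 to 4 and 2, 0, 0 and 0 in Bach2WT mice 1 to 4. Klrb1c had 13 counts in Bach2KO mouse 3, 9 in Bach2WT mouse 2 and 0 elsewhere. In Bach2KO mouse 3, Zap70, Lat and Cd3e had their highest level of all 8 libraries, Cd4 had 28 counts, and Cd3g and Cd8a were at 0. In the same library, Trbc2 had its lowest level of all 8, with 2 counts. Lck had 20 counts there, Cd3d 4, Trac 4 and Trbc1 18. This is also the library that stood apart on the first principal component. Plasma cell markers summed to 137.7 to 255.0 CPM in Bach2KO mice and 154.6 to 214.3 CPM in Bach2WT mice, mostly from Xbp1, which acinar cells also express. In this list Ighm had 13893 counts in Bach2KO mouse 1 against 75 to 1811 in the other 3, and Igha was lower in Bach2KO mice at an unadjusted p of 0.00520 in edgeR (adjusted p = 0.523). Igha had 77, 0, 11 and 11 counts in Bach2KO mice 1 to 4 and 1022, 206, 148 and 0 in Bach2WT mice 1 to 4. Its groups overlapped (p = 0.143 by exact permutation).

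Markers of myeloid cells were read next. The 12 macrophage and monocyte markers summed to 20.0 to 32.7 CPM in Bach2KO mice and 15.2 to 30.5 CPM in Bach2WT mice, with 9 of 12 higher and a median log2 fold change of 0.62. The most abundant gene of the list, the complement gene C1qa, had 6.78 ± 1.89 against 10.5 ± 5.24 CPM (SD, n = 4 per group, log2 fold change -0.64, edgeR, unadjusted p = 0.0515, adjusted p = 0.670). C1qb and C1qc, whose products join that of C1qa in the same complex, had the opposite sign, C1qc with a log2 fold change of 0.58 (SE 0.29, edgeR, adjusted p = 0.702). C1qb had 5.49 ± 1.49 against 2.84 ± 1.49 CPM (SD, n = 4 each, edgeR, unadjusted p = 0.00874, adjusted p = 0.533). Dendritic cell markers summed to 1.41 to 1.97 CPM in Bach2KO mice and 0.864 to 1.14 CPM in Bach2WT mice, without overlap. Only 3 of these 9 markers were tested, and all 3 were higher. Zbtb46 made up the largest part of the sum, at 0.993 ± 0.281 against 0.724 ± 0.0842 CPM with overlap (SD, n = 4 each, edgeR, adjusted p = 0.805). Ccl22, a chemokine that draws T cells, had 30, 20, 12 and 28 counts in Bach2KO mice 1 to 4 and 0, 6, 6 and 0 in Bach2WT mice 1 to 4 (edgeR, adjusted p = 0.602). Eosinophil markers summed to 0.217 to 0.885 CPM in Bach2KO mice and 0 to 0.355 CPM in Bach2WT mice. After TMM scaling, the acinar markers were below the Bach2WT level for 9 of 11, with a median log2 fold change of -0.27. Cela2a, Cpa1, Prss2 and Cel had an unadjusted p under 0.05 in edgeR, where 3.56% of all genes tested were lower. TMM factors were 1.05 to 1.18 for Bach2KO libraries, 1.10 for Bach2WT mouse 1 and 0.826 to 0.859 for Bach2WT mice 2 to 4. Before scaling, the 33 digestive enzymes held 83.1 ± 0.788% of the Bach2KO and 84.3 ± 0.552% of the Bach2WT totals (SD, n = 4 each), with overlap. The part of the scaling in the lower acinar levels was not tested. None of the marker genes passed the adjusted threshold in edgeR.

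**Figure D4:**
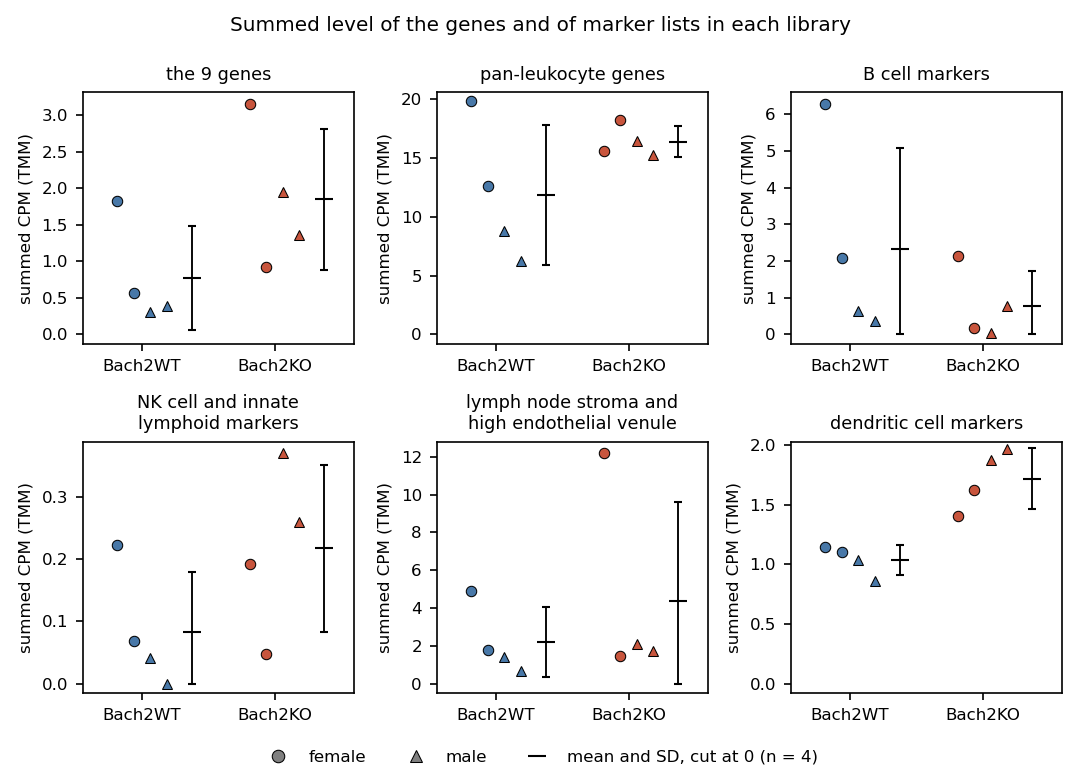
Summed level in CPM after TMM scaling (y axes, linear) of the 9 T cell receptor genes and of 5 marker lists in the 4 Bach2WT and 4 Bach2KO libraries. Circles are females, triangles are males, and bars give the mean and SD, with the lower bar cut at 0. Bach2WT mouse 1 is the highest Bach2WT library in all 6 panels, and the dendritic cell sums are the only ones without overlap. The largest part of the dendritic cell sums is Zbtb46, whose own groups overlap.

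The genes whose pattern over the 8 libraries was most like that of the 6 tested genes were sought by Pearson correlation of log2 CPM with the mean of the 6. That mean was highest in Bach2KO mouse 1 at -1.45, followed by Bach2WT mouse 1 at -2.12, and lowest in Bach2WT mouse 4 at -4.67. The first 10 genes had r between 0.940 and 0.974 (n = 8 libraries) and rho between 0.881 and 1.00. Il2rg, the common gamma chain of interleukin receptors, had an r of 0.966, and 0.979 without Bach2KO mouse 1. Gimap3, a GTPase of lymphocytes, had an r of 0.965. The others were Xdh, Bambi, Cdk8, Dnaja1, Tbc1d14, Mcl1, Slco2a1 and Sult1a1, which many cell types express. These correlations were chosen as the highest of all genes tested in the same libraries, share depth and scaling, and are given as a description. Il2rg had 100, 17, 34 and 80 counts in Bach2KO mice 1 to 4 and 36, 16, 4 and 1 in Bach2WT mice 1 to 4, with a log2 fold change of 1.58 (edgeR, adjusted p = 0.728). Gimap3 had 161, 35, 20 and 53 counts in Bach2KO mice and 47, 8, 0 and 0 in Bach2WT mice.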

How the data were processed

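RNA was isolated from homogenized pancreas of 8 mice, and poly-T selected mRNA libraries were sequenced as paired reads. The submitters' processing notes name fastp, HISAT2 2.2.1, featureCounts 2.0.6 and the build mm39 (GRCm39). The annotation release, the use of strand and the counting of mates are not given in the sources used here. The authors deposited 1 table with counts per gene and library, which are not normalized. The deposited table also holds a normalized signal, which is the count divided by 1 size factor per library, and FPKM values, made by the authors from that signal, the gene length and 1 constant. Its log2 fold changes and p-values are the authors' own comparison and were not used.

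Counts were tested with edgeR 4.0.16 in R 4.3.3 (TMM scaling, filterByExpr by genotype, quasi-likelihood F-test, Benjamini-Hochberg adjustment over 12820 genes, threshold 0.05), without a covariate. The estimated common dispersion of 0.192 corresponds to a coefficient of variation between mice of 0.438. Genes under the filter took their fold change from a fit without it. Sex by genotype was fitted as an interaction. Single genes were compared by an exact two-sided permutation test of CPM over 70 assignments. Group and replicate came from the library names. Alternatives tried were other filters, DESeq2 1.42.0, scaling by RLE, scaling without the digestive enzymes, a sex covariate, a replicate block, halved counts and each library left out. The fits were tested on simulated data with a lower dispersion than estimated here. Only genes of a higher level than the 9 genes were changed in them, so that check does not cover the 9 genes. Log2 CPM used a prior count of 2. Named were all 9 genes, the 4 most abundant genes of each list and the 10 genes most alike, together with list genes at an unadjusted p under 0.05, chosen after their values were seen. A gene that this rule names is not reported here. Promoter sequences and their coordinates are from RefSeq (GRCm38.p6) and were not joined with the GRCm39 positions. The members and lists were chosen with earlier results of these data known.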

Additional observations from a re-analysis of the deposited data

Results flagged for a closer look

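Cd3d was flagged because the genotype effect differed between the sexes, with Bach2KO below Bach2WT in the females and above in the males. The edgeR interaction, male minus female effect, was 6.95 on the log2 scale with an unadjusted p of 0.0137, and the adjusted p of 0.794 did not pass. Cd3e and Cd8a in Bach2WT mouse 1 were flagged as far from the other 3 mice of the group, by Dixon's criterion. Cd3e had 0.122 CPM there (11 counts), and Cd8a had 0.200 CPM (18 counts) against 0 in the other 3. In all, 18 groups were examined this way and 2 were flagged, where chance flags about 1 in 20 groups, and values at 0 make the criterion easy to meet. Bach2WT mouse 1 also had the highest sum of pan-leukocyte and B cell markers in its group, and the part of these cells in the values was not tested.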

How the results depend on the processing

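Over the 9 genes, 0 passed the adjusted threshold in each alternative, except that Zap70 passed in the unfiltered fit without Bach2KO mouse 2 (log2 fold change 4.66, adjusted p = 0.0390). At an unadjusted p under 0.05 with the filter, 1 passed, Lat. The replicate block gave 0 calls for the 9 genes and removed the only call among all genes. Same-numbered mice deviated together in 1 of 4 pairs (r = 0.212, others -0.034 to -0.054), so the numbers were not taken to pair the mice. Requiring at least 10 counts in every library left none of the 9 genes to test, and halving the counts left 2. Among all genes, 1 was called, against 80 with DESeq2, 73 without the filter, 957 at an unadjusted p under 0.05, and 0 with at least 10 counts in every library, with sex as a covariate, with the replicate block, with halved counts and without any 1 library (0 to 0). The cause of these shifts was not tested.

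The log2 fold change of Cd3d turned to -0.089 and -0.061 without Bach2WT mouse 3 or 4 (range -0.089 to 1.04 over single libraries left out), and that of Cd8a turned to -0.74 without Bach2KO mouse 1 (range -0.74 to 6.35). With sex as a covariate and with the replicate block, the fold change of Cd3d was 1.64 and 1.54, that of Trbc2 0.48 and 0.41, that of Cd8a 1.34 and 2.30, and that of Cd3e 1.84 and 2.81. Of 124 values of the 9 genes' fold changes under alternatives, 3 turned direction. Without Bach2WT mouse 1, the median of the coreceptors and costimulatory receptors was 1.44, that of the activation genes 1.85, and the ratio of summed CPM 4.38, an alternative chosen after seeing the data. Counts this low limit every one of the 9 genes.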
